A study of Mus musculus with 18 samples.

Results

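The proteasome genes examined here are the 49 genes of 23420 in the deposited table whose mouse symbol starts with Psm, a letter from a to g and a number. They comprise 8 core alpha subunits (Psma), 11 core beta subunits (Psmb), 7 genes of the cap ATPase series (Psmc), 14 of the cap non-ATPase series (Psmd), 4 activators (Psme), the inhibitor Psmf1 and 4 assembly chaperones (Psmg). The pattern used symbols only and no measured value, but the family was chosen with earlier results of these data known. One of the genes, Psmc3ip, encodes a factor of homologous recombination and is no proteasome component, and it was kept because its symbol fits the pattern. RNA was measured by RNA-seq in sorted mouse regulatory T cells (Tregs) of 3 genotypes, which the labels give as FCre x C1+/+, FCre x C1fl/+ and FCre x C1fl/fl, written below as +/+, fl/+ and fl/fl. Every group, the +/+ controls included, carries FCre, and the labels do not spell out what drives it. Each genotype was sampled as resting and as effector cells with batch numbers 1 to 3, which gives 18 libraries in 6 groups of 3. Total RNA came from cells that were sorted straight into TCL lysis buffer (beta-mercaptoethanol at 1%) and then frozen, and the sources used here give no sex, age or sorting gate. Whether the replicates came from separate animals is not stated in the labels, and p-values therefore measure the spread between these samples, which may be technical.

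The proteasome is the barrel-shaped protease that degrades proteins tagged with ubiquitin. Alpha rings form its gated ends, beta rings hold the proteolytic sites, and a cap of ATPase and non-ATPase subunits recognises, unfolds and feeds in the substrate. In lymphocytes and in cells exposed to interferon, the catalytic subunits Psmb5, Psmb6 and Psmb7 are replaced during assembly by Psmb8, Psmb9 and Psmb10, which gives the immunoproteasome, and the activator of Psme1 and Psme2 can take the place of the cap. The immunoproteasome supplies many of the peptides shown on MHC class I molecules.

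Libraries held 1658073 to 5756903 expected counts (median 3154386.5), of which 10843 to 34331 belonged to the proteasome genes, or 0.567 to 0.654% of each library. The Treg factor Foxp3 lay between 211 and 479 CPM (counts scaled to library size) and Cd3e between 519 and 718 CPM. Markers of other cells were summed per library: B cell markers gave 9.64 to 97.5 CPM, plasma cell markers 0 to 29.5, myeloid 1.16 to 9.61, dendritic 2.15 to 8.46 and red cell markers 0 to 1.69 CPM, and 1 gene each of the plasma, myeloid and red cell lists (Tnfrsf17, S100a8 and Hba-a2) was at 0 in all 18 libraries while others of those lists were detected. The CD8 and NK markers summed to 16 to 47.2 CPM, and 1 of 2 tested, Cd8b1, was called lower in effector cells of +/+ and of fl/+. The other, Klrb1c (0 to 21.8 CPM), went the other way and was not called. Its log2 change was 3.43 in +/+, 2.76 in fl/+ and 2.14 in fl/fl, beside -0.699, -0.766 and -0.482 for Cd8b1. Both had an unadjusted edgeR p under 0.05 in each genotype. The stroma and epithelium list, mostly Pecam1, summed to 181 to 260 CPM in resting and 103 to 196 CPM in effector libraries, with 1 of 2 tested genes called higher and 1 lower in effector cells of +/+ and of fl/+. The part of these markers in the changes between states was not tested. On the first principal component of the 1000 most variable genes, none of them a proteasome gene, the fl/fl resting library of batch 1 lay at -12.5, between the other resting libraries (-38.5 to -23.1) and the effector libraries (2.54 to 41.9). Results that change without it are given with both values.

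Per length, the immune subunit Psmb8 and the activator pair Psme1 and Psme2 had the highest levels of the family, while the other immune subunits, Psmb9 and Psmb10, lay lower. Levels between genes are given in FPKM, fragments scaled to transcript length and library size, as the authors deposited them, with SD over the 18 libraries. Psmb8, the immune chymotrypsin-like subunit, had the highest mean, 551 ± 34.4 FPKM, with a lowest library of 498, a median of 557 and a highest of 625. Psme1 followed at 454 ± 32.0 (402, 457 and 506) and its partner Psme2 at 400.5 ± 24.4 (367, 398 and 464). The ranges of these neighbours touch or overlap, as does that of Psmb1, a noncatalytic beta subunit, at 334 ± 31.6 (289 to 391).

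**Figure D1:**
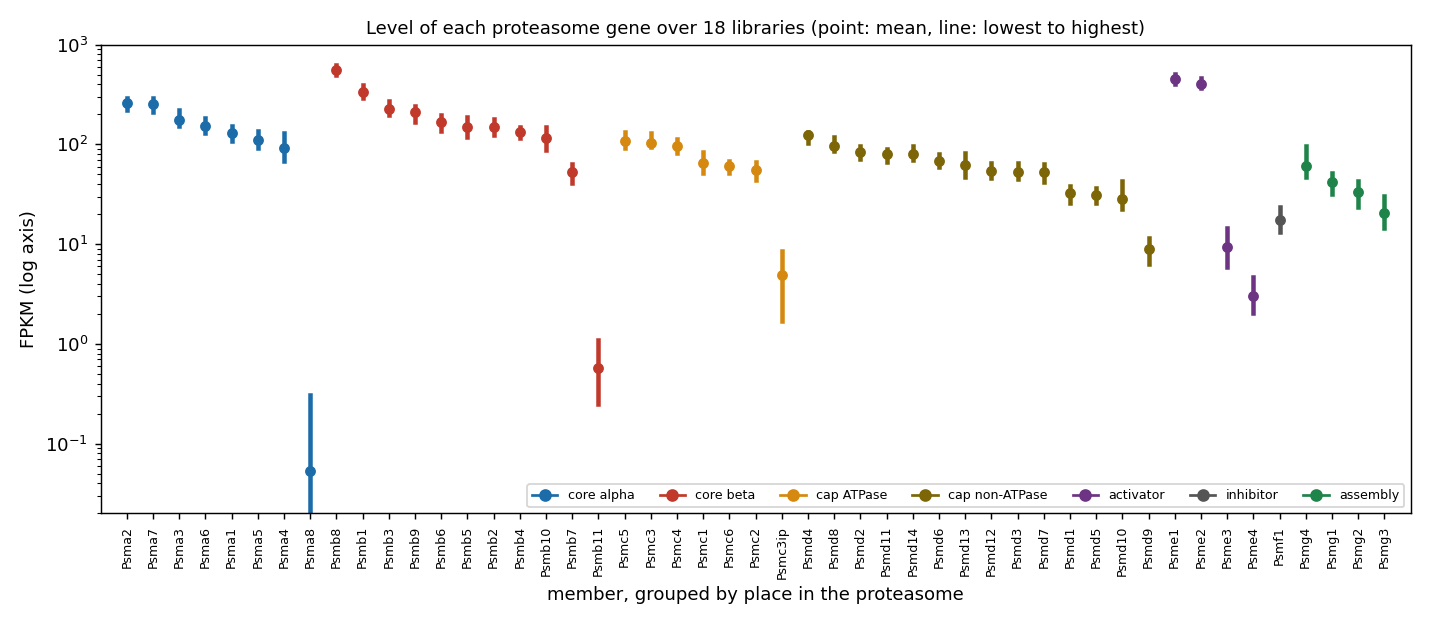
FPKM of each of the 49 proteasome genes on a log axis, coloured by functional group, with the mean over 18 libraries as a point and the lowest to highest library as a line (for Psma8, at 0 in some libraries, the line ends at the axis). Psmb8 (498 to 625), Psme1 (402 to 506) and Psme2 (367 to 464) stand highest, and Psmb11 (0.25 to 1.1) is the lowest of the genes tested.

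Within each group the levels spread widely. Among the alpha subunits tested, Psma2 was highest (257.5 FPKM) and Psma4 lowest (91.7 ± 17.4). Of the beta subunits, Psmb9 stood at 209.9 ± 21.5 FPKM, above its constitutive counterpart Psmb6 (167 ± 14.7) on average, and Psmb10 at 116 ± 17.3, above Psmb7 (53.1 ± 5.9). Psmb11, the thymus-specific catalytic subunit, was lowest at 0.574 FPKM. The highest ATPase was Psmc5 (107 FPKM), and the lowest of that series was Psmc3ip (4.91 FPKM). In the non-ATPase series Psmd4, a ubiquitin receptor, was highest (123.5 FPKM) and the chaperone Psmd9 lowest (9.002 FPKM). Psme3, the nuclear activator, and Psme4, the largest activator, were far below Psme1 and Psme2, at 9.47 and 2.99 FPKM. The inhibitor Psmf1 stood at 17.4 FPKM, and the assembly chaperones ran from Psmg3 (20.5) to Psmg4 (61.2). The median over genes was 141.5 FPKM for alpha, 149 for beta, 64.6 for ATPase, 57.8 for non-ATPase and 37.7 for assembly genes, beside 11.47 FPKM over the 10630 genes tested. Psma8, the testis alpha subunit, had 0 to 2 counts a library and was at 0 in all resting and all fl/fl effector libraries. It was the single family member left out of the tests for low counts, so 48 were tested.

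Group means of the family lay close together. The range of the 6 group means on the log2 CPM scale had a median of 0.256 over the 48 proteasome genes, from 0.092 for Psmc3, an ATPase, to 0.871 for Psmc3ip, and a median of 0.486 over all genes tested. The biological coefficient of variation between replicates had a median of 0.094 against 0.139, at a higher mean level than the typical gene.

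Several immunoproteasome genes sit in clusters, and coordinates here are from RefSeq on GRCm38.p6. Psmb9 (chr17:34182030-34187330) and Psmb8 (chr17:34198195-34201454) lie in the MHC region on either side of Tap1, with 225 bases between Psmb9 and Tap1 and 969 between Tap1 and Psmb8. Psme1 (chr14:55578494-55581527) and Psme2 (chr14:55587440-55591101) are 5912 bases apart, and Psmb10 (chr8:105935728-105938392) and Psma4 (chr9:54950781-54958034) stand elsewhere. In the GENCODE vM21 annotation Psmb9 shares 212 exon bases with Tap1, Psmb8 498 with Gm20496, Psmb7 405 with Nek6 and Psma4 114 with AY074887, each on the opposite strand. The sources used here give no strand setting for the counting, so reads from these stretches cannot be told apart between the genes. Psmb5 shares 109 exon bases with Mir686 on the same strand, and further genes of the family overlap other genes.

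Promoters were searched because the transcription factor Nfe2l1 controls proteasome genes through antioxidant response elements and interferon controls the immune subunits. The 250 bases upstream of RefSeq start sites were read on both strands for 41 of the 49 genes (44 promoters of 32851). The core TGACNNNGC was in 5 of the 44 (11.4%, against 10.2% of all promoters), and the second form TGAGNNNGC in 11 (25% against 14.4%). The gamma-activated site TTCNNNGAA was in 2 (4.55% against 7.02%) and the interferon-stimulated element GAAANNGAA in 3 (6.82% against 7.13%). The 4 sites printed below are those of the catalytic subunits Psmb8, Psmb5 and Psmb6 and of Psma4, the gene called between states in 2 genotypes. Capitals mark the match, at -97, -47, -9 and -127 from the start site of the promoter table in that order. For Psmb6 and Psma4 that start site (70525357 and 54950859) lies downstream of the start of the gene span, so the Psma4 match is 49 bases upstream of the gene's first base and the Psmb6 match is 24 bases inside the gene. No window of Psmb9 or Psmb10 held a match. The Psmb8 site (chr17:34198088-34198117, plus strand) falls in an exon of a GENCODE transcript of Psmb8, and the Psma4 site (chr9:54950722-54950751, plus strand) in an exon of AY074887. The Psmb5 site is at chr14:54618023-54618052 on the minus strand and the Psmb6 site at chr11:70525327-70525356 on the plus strand, in no GENCODE exon. A match is a description of letters, and binding was not measured.
Psmb8: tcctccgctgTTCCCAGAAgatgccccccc
Psmb5: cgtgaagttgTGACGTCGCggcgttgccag
Psmb6: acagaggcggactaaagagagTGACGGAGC
Psma4: gtgggcagacTGAGCCCGCcccagcactgg

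The first comparison set effector against resting cells in each genotype. Only 2 proteasome genes were called by edgeR's quasi-likelihood test at a Benjamini-Hochberg adjusted p under 0.05 over all genes tested. Psma4 was higher in effector cells of +/+ and fl/+, and Psmb10 was lower in effector cells of fl/+. In +/+ 1 of 48 was called, where 16.0% of all genes tested were called in either direction and 9.49% were called higher. In fl/+ 2 of 48 were called, 1 in each direction, where 16.3% of all genes were called, 9.72% higher and 6.58% lower. In fl/fl 0 of 48 were called by edgeR, where 6.34% of all genes were called. An unadjusted p under 0.05 was found for 5 of 48 in +/+, 6 in fl/+ and 8 in fl/fl (10.4, 12.5 and 16.7%), beside 28.7, 29.3 and 19.1% of all genes tested. In fl/fl DESeq2 called 0 of the family, and limma on FPKM called 6 to 7, all higher in effector cells, where it called 2.63 to 6.3% of all genes. In these bulk samples fewer cells of a type and less RNA per cell cannot be told apart.

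Psma4, an alpha ring subunit, was at 84.48, 78.21 and 68.69 CPM in +/+ resting libraries of batches 1 to 3 and at 105, 90.91 and 100.5 CPM in +/+ effector libraries. In fl/+ it was at 77.54, 77.92 and 88.75 CPM resting and 94.84, 98.39 and 123.6 CPM effector. In fl/fl it was at 80.22, 76.49 and 85.9 CPM resting and 100.2, 114.4 and 99.75 CPM effector. The states did not overlap in any genotype, beside no overlap for 32.3, 34.1 and 21.7% of all genes tested in +/+, fl/+ and fl/fl. Effector was higher in all 3 batches of each, and the highest of the 9 resting libraries (88.7) lay below the lowest of the 9 effector libraries (90.9). These are the values that made the calls, and the share of all genes separated over 9 and 9 libraries was not counted. The mean rose from 77.1 ± 7.95 to 98.8 ± 7.19 CPM in +/+ (SD, n = 3; log2 change 0.36, SE 0.12, edgeR quasi-likelihood adjusted p = 0.0465). It rose from 81.4 ± 6.36 to 105.6 ± 15.7 CPM in fl/+ (0.38, SE 0.12, edgeR adjusted p = 0.0317). In fl/fl the means were 80.9 ± 4.74 and 104.8 ± 8.33 CPM, a log2 change of 0.37 (SE 0.12, 95% interval 0.13 to 0.62) that missed the threshold (edgeR adjusted p = 0.0684). The difference between genotypes in this change was 0.02 (fl/+ against +/+, unadjusted p = 0.908, edgeR adjusted p = 1) and 0.02 (fl/fl against +/+, edgeR adjusted p = 0.99).

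The Psma4 call in +/+ sat close to the threshold. It was lost in 9 of 18 fits that left out 1 library, with edgeR adjusted p of 0.188 without +/+ resting 3, 0.17 without +/+ effector 1, 0.11 without +/+ effector 3 and 0.0827 without +/+ resting 2. The other 5 fits, without fl/+ resting 1, fl/fl resting 1, fl/fl resting 3, fl/fl effector 1 or fl/fl effector 2, gave 0.0509 to 0.0584. In fl/+ it was lost in 3 of 18, at 0.216 without effector 3, 0.124 without resting 1 and 0.0988 without resting 2. The log2 change stayed positive over the 28 alternatives in each genotype, at 0.28 to 0.459 in +/+ (adjusted p 0.0114 to 0.188), 0.254 to 0.475 in fl/+ (0.00771 to 0.216) and 0.308 to 0.469 in fl/fl (0.0219 to 0.206).

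**Figure D2:**
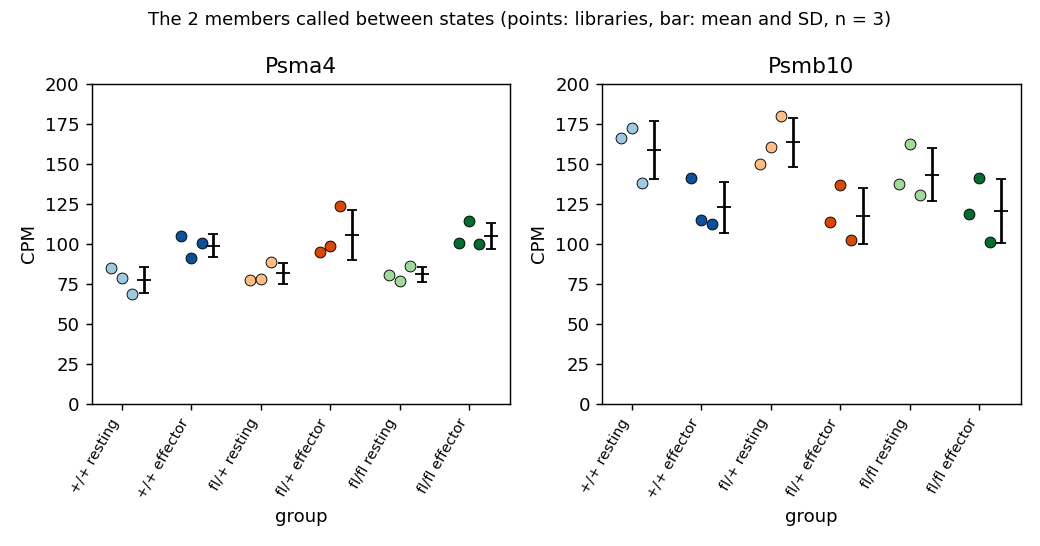
CPM of Psma4 and Psmb10 in each library by genotype and state, with 1 point per library (batches 1 to 3 from left to right) and the group mean and SD (n = 3) beside them. Psma4 lies between 68.7 and 88.7 in resting and from 90.9 upward in effector libraries, while Psmb10 is higher in the resting library of every batch.

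Psmb10, the immune trypsin-like subunit, moved the other way. It was at 149.9, 160.2 and 179.8 CPM in fl/+ resting libraries and at 113.2, 136.7 and 102.1 CPM in fl/+ effector libraries, and the states did not overlap. The mean fell from 163 ± 15.2 to 117 ± 17.7 CPM (n = 3; log2 change -0.47, SE 0.14, 95% interval -0.76 to -0.19, edgeR quasi-likelihood adjusted p = 0.0223), and effector was lower in 3 of 3 batches. In +/+ it was at 165.7, 172.2 and 137.8 CPM resting and 141.1, 114.7 and 112.4 CPM effector, and the ranges overlap through batch 3 resting and batch 1 effector. That change was -0.36 (SE 0.14, edgeR adjusted p = 0.0868), lower in 3 of 3 batches, and it passed with the batch number as a replicate block (log2 -0.353, edgeR adjusted p = 0.047). In fl/fl it was at 137.2, 162 and 130.2 CPM resting and 118.5, 140.9 and 101 CPM effector, again lower in every batch, with overlap (-0.24, SE 0.14, 95% interval -0.54 to 0.05, edgeR adjusted p = 0.374). The change did not differ between genotypes beyond its error: it was -0.11 in fl/+ against +/+ (edgeR adjusted p = 1), 0.12 in fl/fl against +/+ (0.917) and 0.23 in fl/fl against fl/+ (0.967). The fl/+ call was lost without fl/+ effector 3 (edgeR adjusted p = 0.13), fl/+ resting 3 (0.104), fl/+ effector 1 (0.0799) or fl/+ resting 2 (0.0574). It was also lost with scaling by library totals alone (log2 -0.378, edgeR adjusted p = 0.0705) and with limma on FPKM (adjusted p 0.0637 to 0.115), and the range over its 28 alternatives was -0.583 to -0.378 (adjusted p 0.00379 to 0.13).

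The other immune subunits were not called between states. Psmb8 was at 721.7, 668.2 and 632 CPM in +/+ resting and 597.6, 617.4 and 628 CPM in +/+ effector libraries (log2 -0.13, 95% interval -0.32 to 0.05, edgeR adjusted p = 0.346). Its changes in fl/+ and fl/fl were -0.09 (-0.28 to 0.09) and 0.04 (-0.15 to 0.22). Psmb9, the immune caspase-like position, was at 172.5, 177.9 and 143.7 CPM in +/+ resting and 148.3, 150.6 and 148.2 CPM in +/+ effector libraries (-0.15, -0.33 to 0.04). Its +/+ effector libraries lie within 3 CPM of each other, between the resting libraries. In fl/+ Psmb9 went from 124.5, 134.6 and 139.9 CPM resting to 150.1, 150.2 and 148.3 CPM effector with no overlap (0.17, -0.01 to 0.36, edgeR adjusted p = 0.207). In fl/fl it was at 148.2, 136.7 and 139 CPM resting and 161.5, 150 and 155.4 CPM effector, also with no overlap (0.14, -0.05 to 0.33, edgeR adjusted p = 0.432). The change in Psmb9 was more positive than in +/+ by 0.32 in fl/+ (SE 0.13, unadjusted p = 0.0203, edgeR adjusted p = 1) and by 0.29 in fl/fl (SE 0.13, unadjusted p = 0.0356, edgeR adjusted p = 0.517), and neither passed.

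No constitutive counterpart was called between states. Psmb5 changed by -0.20 (95% interval -0.48 to 0.09) in +/+, 0.02 (-0.26 to 0.30) in fl/+ and 0.05 (-0.23 to 0.33) in fl/fl on the log2 scale. Psmb6 changed by -0.14, 0.13 and 0.06, and Psmb7, at 38.5 to 56.3 CPM over the libraries, by 0.03, -0.01 and 0.03, none of them called. Per length, the immune subunit of each pair was the more abundant one in all 18 libraries. Psmb8 made up 78.7 ± 1.97% of Psmb8 plus Psmb5 FPKM (SD, n = 18; 75.1 to 82.7%), Psmb9 made up 55.6 ± 2.19% of Psmb9 plus Psmb6 (51.9 to 59.9%) and Psmb10 made up 68.4 ± 4.78% of Psmb10 plus Psmb7 (58.3 to 77.0%). By group, the Psmb8 share ran from 76.9 ± 1.87% in fl/fl effector to 80.5 ± 2.27% in fl/+ resting cells. The Psmb9 share ran from 54.2 ± 1.35% in fl/fl resting to 56.8 ± 3.13% in +/+ resting cells, a gap within the spread of the groups. The Psmb10 share was 71.8 ± 4.5% resting and 65.8 ± 2.14% effector in +/+, 73.2 ± 2.89% and 66.2 ± 5.14% in fl/+, and 69.0 ± 3.1% and 64.3 ± 5.41% in fl/fl. The effector mean of the Psmb10 share was thus below the resting mean in each genotype, with groups of 3 that no test was run on. With CPM in place of FPKM, which does not account for length, Psmb9 was 47.2 to 49.9% of its pair in the group means, so which of Psmb9 and Psmb6 is the more abundant depends on the length correction.

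**Figure D3:**
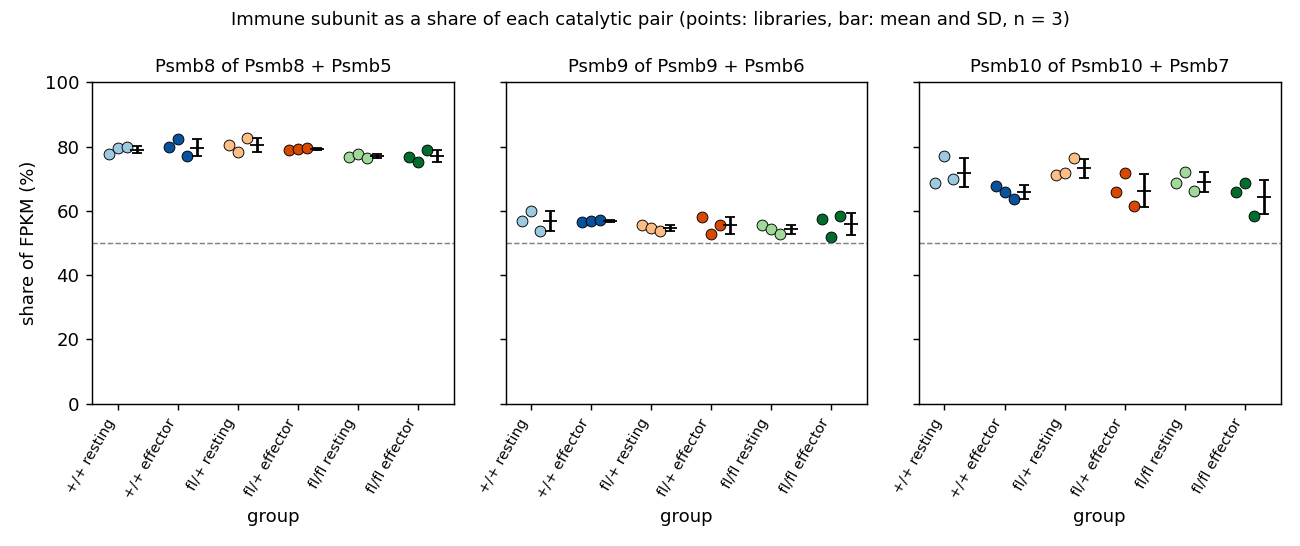
Share of the immune subunit in each catalytic pair, in percent of summed FPKM, with 1 point per library, the group mean and SD (n = 3) beside them and a dashed line at equal shares. Psmb8 holds 75.1 to 82.7%, Psmb9 51.9 to 59.9% and Psmb10 58.3 to 77.0%, and the effector mean of Psmb10 is below the resting mean in each genotype.

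Most of the family changed little between states in these fits. The median log2 change of the 48 genes was -0.0364 in +/+, 0.0192 in fl/+ and 0.0683 in fl/fl, beside -0.012, -0.00745 and -0.0124 over all genes tested. The number with a positive change was 21, 29 and 35 of 48 (43.8, 60.4 and 72.9%), beside 48.5, 49.1 and 48.1% of all genes tested. Scaling moved these medians: with library totals alone they were 0.0626, 0.117 and 0.155, beside 0.0869, 0.0901 and 0.0727 over all genes, so the sign in +/+ depends on the scaling. The same change of scaling moved the calls over all genes from 59.4 to 73.6% higher in +/+, from 59.6 to 74.8% in fl/+ and from 79.1 to 92.1% in fl/fl. Groups of CPM values did not overlap for 12 of 48 genes (25%) in +/+, 8 (16.7%) in fl/+ and 15 (31.2%) in fl/fl, beside 32.3%, 34.1% and 21.7% of all genes tested. Single libraries moved the family medians: the +/+ median ran from -0.0787 without +/+ resting 3 to -0.00694 without +/+ resting 2, and the fl/+ median from -9.25e-05 without fl/+ effector 2 to 0.0781 without fl/+ effector 1. The fl/fl median ran from 0.0301 without fl/fl resting 1, where 0 proteasome genes were called, to 0.101 without another library. The summed CPM of 15 proliferation genes moved with the state as well, from 355 to 468 in resting libraries to 574 to 953 in +/+, 749 to 958 in fl/+ and 996 to 1280 in fl/fl effector libraries, and its part in the proteasome values was not tested.

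**Figure D4:**
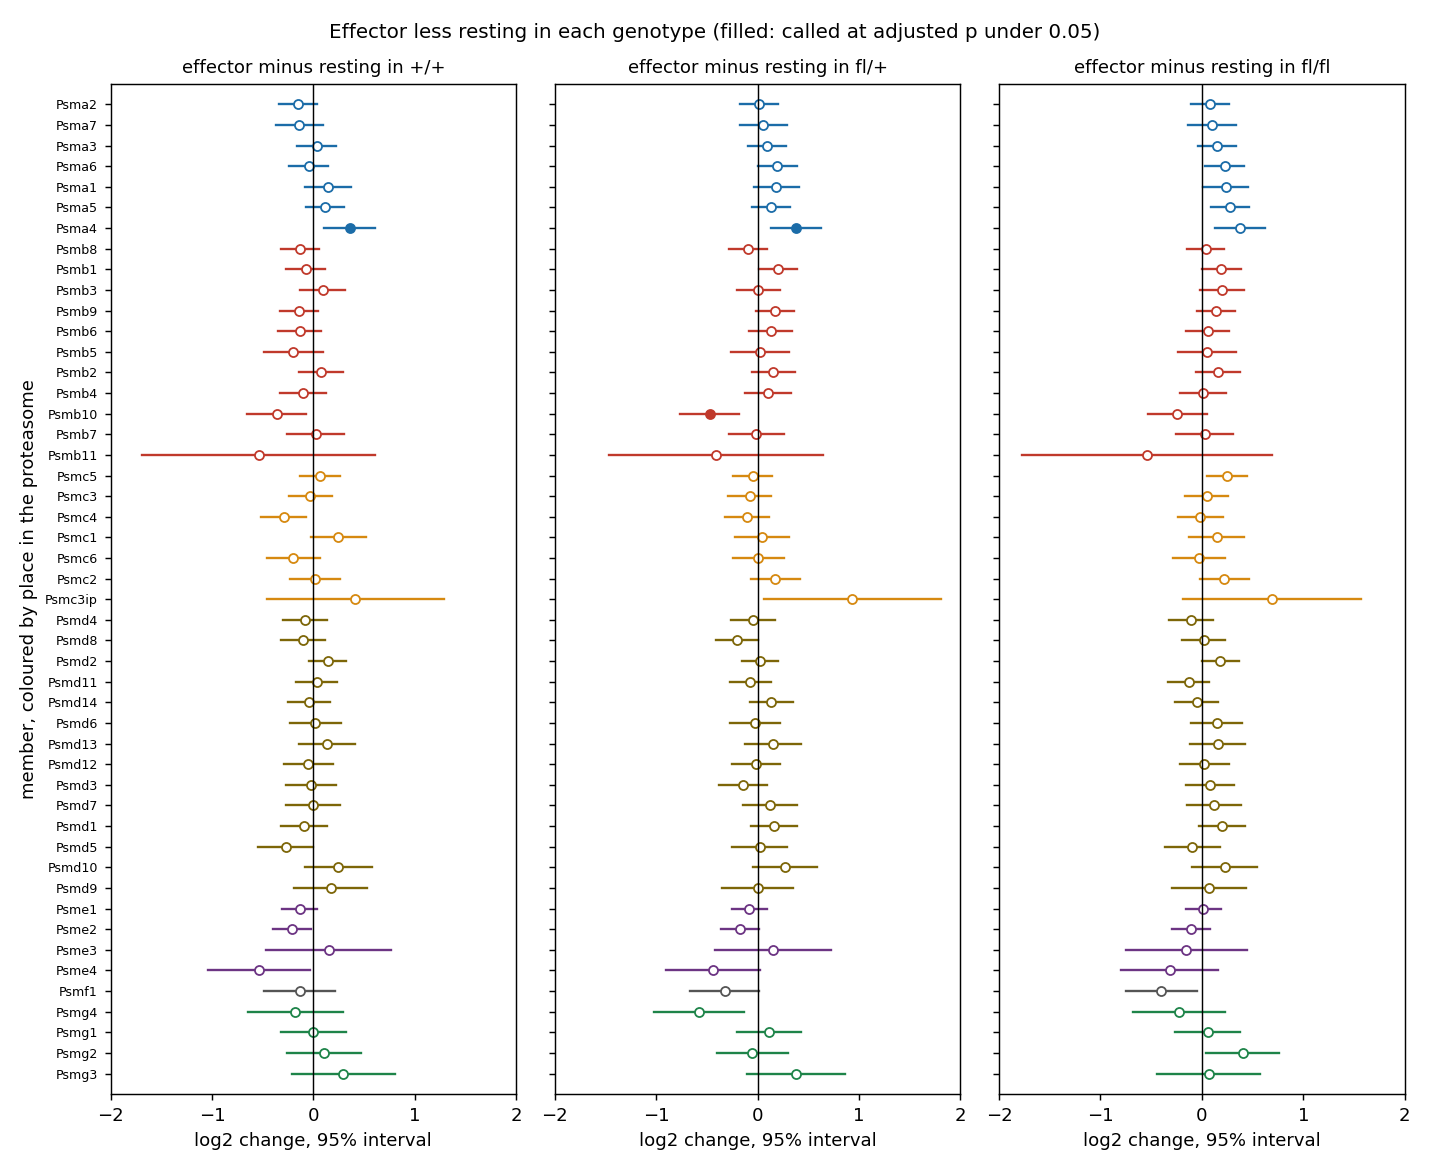
Log2 change, effector minus resting, of the 48 tested proteasome genes by functional group and genotype, with 1 point per gene, its 95% interval as a line, and filled points for genes called at an adjusted p under 0.05. Most genes lie near 0, and the filled ones are Psma4 in +/+ and fl/+ (0.36 and 0.38) and Psmb10 in fl/+ (-0.47).

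The signs of the alpha subunits were one-sided in 2 genotypes with edgeR and TMM scaling. In +/+ 4 of 7 had a positive change (median 0.0314), from -0.15 for Psma2 to 0.36 for Psma4. In fl/+ and fl/fl all 7 did (medians 0.132 and 0.224). The fl/+ count depends on the fit, since Psma2 was at 0.0112 and ran from -0.0673 to 0.107 over its alternatives. Over all genes tested 48.5% had a positive change in +/+, 49.1% in fl/+ and 48.1% in fl/fl. In fl/fl 4 of the 7 had an unadjusted p under 0.05 and 0 were called by edgeR with TMM scaling and filterByExpr or by DESeq2. Psma5, named after its values were seen, was at 124.7, 110.4 and 119 CPM in fl/fl resting and 143.8, 143.3 and 143.3 CPM in fl/fl effector libraries, with no overlap (log2 0.28, SE 0.09, edgeR adjusted p = 0.0686), and it passed with a filter of at least 10 CPM in 3 libraries (edgeR adjusted p = 0.0437). With library totals alone edgeR called 5 genes higher in fl/fl effector cells, Psma4, Psma5, Psma6, Psmb1 and Psmc5. In fl/+ the same scaling called Psma4, Psmb1 (edgeR adjusted p = 0.0129) and Psma6 (0.0302) higher in effector cells. The beta subunits had a positive change in 3 of 11 in +/+ (median -0.135), 7 of 11 in fl/+ (0.0201) and 9 of 11 in fl/fl (0.0507), and in +/+ the values ran from -0.54 for Psmb11 (95% interval -1.69 to 0.61) to 0.09 for Psmb3. These counts of signs are descriptions, and the tests between genotypes follow in the third comparison.

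With edgeR, TMM scaling and all libraries no cap gene was called in any genotype, while Psmc5 was called higher in fl/fl effector cells with library totals alone (edgeR adjusted p = 0.0335) and by limma on FPKM (adjusted p 0.0276 to 0.0381). The ATPase series had a positive change in 4, 4 and 5 of 7 in +/+, fl/+ and fl/fl (medians 0.0157, 0.0068 and 0.146). Its extremes in +/+ were Psmc4 at -0.29 and Psmc3ip at 0.41, the latter on 7 to 23 counts a library. Psmc4, a cap ATPase, was at 155, 142.6 and 125.1 CPM in +/+ resting and 118.9, 120.5 and 106.4 CPM in +/+ effector libraries without overlap (SE 0.11, edgeR adjusted p = 0.0706), and it passed without +/+ resting 3 (log2 -0.375, edgeR adjusted p = 0.0357). Psmc3ip, the recombination factor, was higher in effector cells by 0.94 in fl/+ (SE 0.42, edgeR adjusted p = 0.142) and 0.69 in fl/fl (SE 0.42, edgeR adjusted p = 0.406). The non-ATPase series had a positive change in 6, 8 and 10 of 14 (medians -0.0123, 0.00969 and 0.0755). Its extremes in +/+ were 2 assembly chaperones, Psmd5 at -0.27 and Psmd10 at 0.25, and Psmd10 was at 0.27 and 0.22 in fl/+ and fl/fl, none called.

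Neither the activators nor the inhibitor were called, and 1 of 4 activators had a positive change in each genotype. Psme1 was at 425.6 to 444.2 CPM in +/+ resting and 375.8 to 406 CPM in +/+ effector libraries without overlap (log2 -0.13, 95% interval -0.31 to 0.04), and its changes in fl/+ and fl/fl were -0.08 and 0.01. Psme2 was at 365.3, 350.9 and 312.7 CPM in +/+ resting and 313.3, 295.5 and 278.7 CPM in +/+ effector libraries, which overlap by under 1 CPM. Its change was -0.21 in +/+ (SE 0.09, unadjusted p = 0.0288, edgeR adjusted p = 0.121), -0.17 in fl/+ and -0.11 in fl/fl, and effector was lower in all 3 batches of each genotype. Psme3 changed by 0.15, 0.15 and -0.16. Psme4, which also opens the core, was at 20.55, 21.88 and 18.55 CPM in +/+ resting and 14.58, 12.69 and 14.41 CPM in +/+ effector libraries (-0.54, SE 0.24, edgeR adjusted p = 0.142), with -0.44 in fl/+ and -0.32 in fl/fl. Psmf1, which binds the core and blocks it, changed by -0.14, -0.33 and -0.40, the last with an unadjusted p of 0.0265 and an edgeR adjusted p of 0.184.

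Among the assembly chaperones, Psmg4 had the most negative change. It was at 22.83, 36.99 and 40.38 CPM in fl/+ resting and 18.54, 27.71 and 19.84 CPM in fl/+ effector libraries, lower in each batch, with overlapping ranges (log2 -0.58, SE 0.21, edgeR adjusted p = 0.0701). It passed with the replicate block (-0.574, edgeR adjusted p = 0.0256), without fl/+ resting 1 (-0.814, 0.0144) and without fl/+ effector 2 (-0.757, 0.0293). In +/+ and fl/fl its changes were -0.18 and -0.22. Psmg3 changed by 0.30 in +/+, 0.38 in fl/+ and 0.07 in fl/fl, none called.

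**Figure D5:**
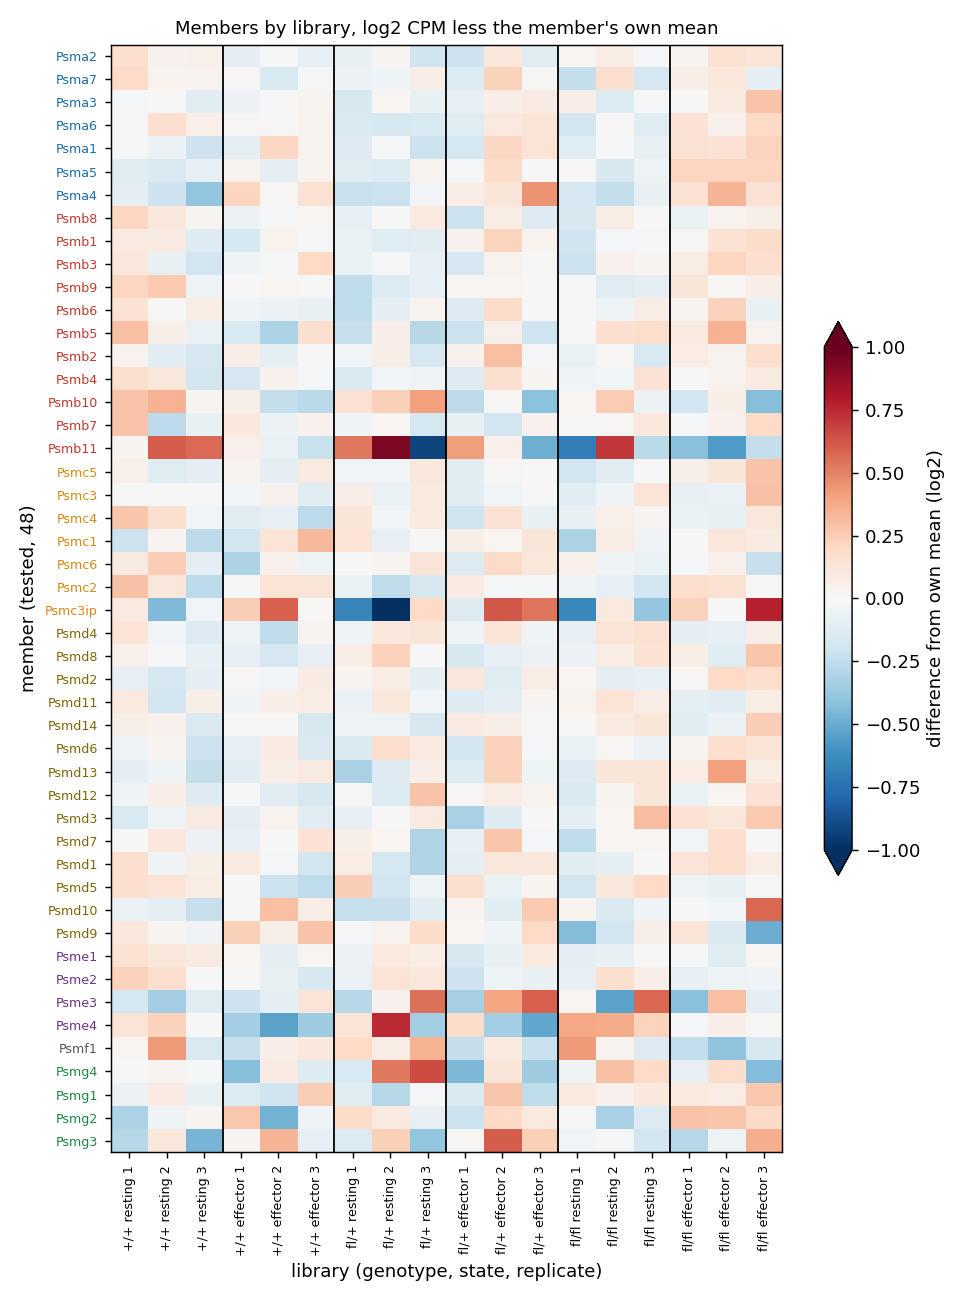
Deviation of each of the 48 tested proteasome genes from its mean over the 18 libraries, on the log2 CPM scale, with genes as rows by functional group, libraries as columns by genotype and state, red above and blue below the mean. The range between group means has a median of 0.256 over the genes and reaches 0.871 in Psmc3ip, a gene of low counts.

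The second comparison set the genotypes against each other within a state, and no proteasome gene was called. Over 6 contrasts of 48 genes, 0 of 288 tests passed with edgeR, and DESeq2 and limma also called 0, while 7 (2.43%) had an unadjusted p under 0.05, beside 8.97% of all tests in these contrasts. The fl/fl contrasts share libraries with the fl/+ contrasts, so they are not independent. The share of all genes called in resting cells was 0.0847% for fl/+ against +/+, 0.696% for fl/fl against +/+ and 0.0282% for fl/fl against fl/+. In effector cells it was 0.00941%, 2.81% and 0.677% in the same order. These shares depend on single libraries. In resting cells the count for fl/+ against +/+ was 9 genes and ran from 3 without +/+ resting 1 or fl/+ resting 3 to 75 without +/+ resting 3, and that for fl/fl against +/+ was 74 and ran from 6 without +/+ resting 1 to 154 without +/+ resting 3. In effector cells fl/fl against +/+ gave 299 and ran from 31 without +/+ effector 1 to 648 without fl/fl effector 1, and fl/fl against fl/+ gave 72 and ran from 3 without fl/+ effector 3 to 310 without fl/fl effector 1. The lowest edgeR adjusted p was 0.199, for Psma5 in effector cells, at 123 ± 5.82 CPM in +/+ and 143 ± 0.287 CPM in fl/fl (n = 3, log2 0.22). In that contrast 40 of 48 genes (83.3%) had a positive difference, beside 51% of all genes tested. The median difference was 0.0909, beside 0.00678 over all genes tested. The summed CPM of the proliferation genes was also above every +/+ effector library in the fl/fl effector libraries, and its part in this was not tested. The medians of the other 5 contrasts lay between -0.0191 and 0.0552.

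Psmb9 had the lowest unadjusted p of the immune subunits between genotypes. In resting cells it was at 172.5, 177.9 and 143.7 CPM in +/+ and 124.5, 134.6 and 139.9 CPM in fl/+ without overlap (log2 -0.31, SE 0.09, unadjusted p = 0.00237, edgeR adjusted p = 0.296). In that contrast the groups did not overlap for 3 of 48 proteasome genes (6.25%), beside 10.3% of all genes tested. Without +/+ resting 3 Psmb9 passed (-0.404, edgeR adjusted p = 0.0414), and over its 28 alternatives the adjusted p ran from 0.0414 to 1. In fl/fl resting cells it was lower than in +/+ by a log2 difference of -0.22, which did not pass. For 44 of the 48 genes the 95% interval lay within 1 log2 unit of 0 in all 9 contrasts between 2 groups.

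The third comparison asked whether the change between states differed by genotype. With edgeR 0 of 48 genes passed in each interaction, where 0.0188% of all genes were called for fl/+ against +/+, 0% for fl/fl against +/+ and 0.00941% for fl/fl against fl/+. The unadjusted p was under 0.05 for 2, 1 and 1 genes (4.17, 2.08 and 2.08%, beside 3.23, 8.97 and 5.89% of all genes), the lowest edgeR adjusted p was 0.517 (Psmb9, fl/fl against +/+), and DESeq2 and limma called 0. The median interaction was 0.0416, 0.116 and 0.0395, beside 0.00107, 0.00617 and 0.000602 over all genes tested. For fl/fl against +/+ 37 of 48 genes (77.1%) had a positive value, beside 50.6% of all genes tested.

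The wider pathway is described by lists of genes that work with the proteasome. Of 11 tested factors that bind or assemble the proteasome and lie outside the symbol rule, 0 were called by edgeR between states in any genotype, with 3, 1 and 1 at an unadjusted p under 0.05. Among them the assembly factor Pomp changed by 0.23, -0.03 and 0.08 in +/+, fl/+ and fl/fl, and in +/+ it passed with library totals alone (log2 0.325, edgeR adjusted p = 0.0187) and with limma on FPKM. Of 6 tested regulators of proteasome genes, 2 were called higher and 1 lower in +/+, 1 and 1 in fl/+ and 0 in fl/fl. Nfe2l2, which drives antioxidant genes, fell from 54.1 ± 3.34 to 39.8 ± 6.93 CPM in +/+ (log2 -0.42, edgeR adjusted p = 0.0367, called in 12 of 28 alternatives) and by 0.56 on the log2 scale in fl/+ (edgeR adjusted p = 0.00532, called in 27 of 28). Its small Maf partner Mafg rose by 1.88 in +/+ and 2.04 in fl/+ from 3.2 ± 1.6 and 2.24 ± 1.17 CPM, and Ddi2, the protease that activates Nfe2l1, rose by 1.04 in +/+. Ddi2 was not called in fl/+ or fl/fl, at -0.184 to 0.292 and -0.515 to 0.0383 over the alternatives. Its resting level was above that of +/+ by a log2 difference of 1.1 in fl/+ and 1.23 in fl/fl, neither called. Nfe2l1 itself changed by 0.25, 0.20 and 0.07 and was not called.

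Of 14 tested genes of ubiquitin supply and delivery, 1 was called higher and 3 lower in +/+, 2 higher in fl/+ and 0 in fl/fl, and those reported here follow. Vcp, the segregase that hands substrates to the proteasome, rose from 303 ± 26.1 to 374 ± 16.1 CPM in +/+ (log2 0.30, edgeR adjusted p = 0.0164, called in 23 of 28 alternatives) and by 0.30 in fl/+. The shuttle factor Ubqln2 rose by 1.57 in fl/+ from 2.87 ± 1.03 CPM. It was not called in +/+ (0.723) or in fl/fl, where it ran from -0.609 to -0.112 over the alternatives. In +/+ Rps27a, which encodes ubiquitin fused to a ribosomal protein, fell by 0.44 on the log2 scale (edgeR adjusted p = 0.00716, called in 26 of 28 alternatives).

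Of 13 tested genes of MHC class I processing and its interferon control, 1 was called higher in +/+, 3 higher and 2 lower in fl/+ and 1 higher in fl/fl. Pdia3, a disulfide isomerase of the peptide-loading complex, rose in all 3 genotypes, by 0.34, 0.34 and 0.30 (edgeR adjusted p = 0.00294, 0.00306 and 0.0166). In fl/+ the loading chaperone Calr rose by 0.37 and the interferon regulatory factor Irf8 by 1.24, while the interferon regulatory factor Irf1 fell by 0.35 and the peptide transporter Tap2 by 0.27 (edgeR adjusted p = 0.0413, called in 7 of 28 alternatives). Irf1 was called in 20 of 28 alternatives. Its call was lost with library totals alone (log2 -0.257, edgeR adjusted p = 0.133) and with limma on FPKM (limma adjusted p 0.136 to 0.206). Tap1, the neighbour of Psmb8 and Psmb9, changed by -0.02, -0.07 and 0.02 and was not called.

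Several pathway calls depended on single libraries. In +/+ the call of Rps27a was lost without +/+ effector 1 (edgeR adjusted p = 0.0525) or +/+ resting 2 (0.0615), and that of Mafg without +/+ effector 2 (0.0738) or +/+ resting 2 (0.0594). Ddi2 lost its call without +/+ resting 1 (0.143), resting 3 (0.0925), effector 1 (0.0783) or effector 2 (0.0755), and Vcp without +/+ resting 2 (0.0735), resting 3 (0.0616), effector 3 (0.0662) or effector 1 (0.0588). Nfe2l2 in +/+ was lost in 9 of 18 such fits, with adjusted p up to 0.178, and Tap2 in fl/+ in 14 of 18, up to 0.244. In fl/+ the library fl/+ resting 1 decided most: without it the calls of Mafg (0.0931), Vcp (0.089), Irf8 (0.0755), Ubqln2 (0.0906), Calr (0.0637) and Irf1 (0.13) were lost. Without fl/+ effector 3 those of Vcp (0.0814), Ubqln2 (0.1), Calr (0.128) and Irf1 (0.133) were lost, without fl/+ effector 1 those of Calr (0.12) and Irf1 (0.0844), without fl/+ effector 2 that of Ubqln2 (0.0741), without fl/+ resting 2 those of Calr (0.124) and Irf1 (0.0912), and without fl/+ resting 3 that of Ubqln2 (0.0757). Pdia3 kept its call in +/+ and fl/+ in all 28 alternatives. In fl/fl it kept the call in 23 of 28 and lost it without fl/fl resting 3 (0.0953), resting 2 (0.0501) or effector 1 (0.0502). The fl/fl call was also lost without a low-count filter (edgeR adjusted p = 0.069) and with the groups of the contrast alone (0.0843).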

How the data were processed

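RNA-seq of sorted Tregs gave 18 libraries. Tools named in the submitters' processing notes are RSEM 1.2.8, STAR 2.6.0 and bcl2fastq 2.17.1.14, with build mm10. Annotation, strand setting and filters were not given in the sources used here. Expected counts per gene symbol, deposited by the authors, entered every main test, and 29.4% of nonzero values were not whole and were rounded, since RSEM divides reads that fit several genes. The FPKM values deposited by the authors were used for levels between genes, for shares and in limma. Between 10.9 and 16.4% of a library's counts fell on Rn45s, a ribosomal RNA gene.

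In R 4.3.3 with edgeR 4.0.16, counts were scaled by TMM (trimmed mean of M values, factors 0.9394 to 1.063) and filtered with filterByExpr by group, which kept 10630 genes. All 18 libraries entered 1 model of 6 group means, tested by the quasi-likelihood F test. Calls are at a Benjamini-Hochberg adjusted p under 0.05 over all genes. The common dispersion was 0.0215. Replicates of a group differed by more than sampling noise (chi-square per gene 3.43 to 6.93). CPM are TMM-scaled, changes are log2, and intervals are 95%. The scripts were tested on simulated data. Alternatives used DESeq2 1.42.0, limma 3.58.1 on log2(FPKM + 1) or log2(FPKM + 0.1), other scaling and filters, the groups of a contrast alone, a replicate block and each library left out, 28 per result. Deviations from group means at the same batch number in the 2 states of a genotype correlated at 0.139 to 0.344 in 9 of 9 pairs (mean 0.206). At the same number in other genotypes the mean correlation was 0.0657, with 11 of 36 pairs over 0.1. The block is by number over all genotypes, so it does not pair the 2 states of a single genotype. No fit paired them within a genotype, so the p-values between states do not use this pairing. The number is labelled batch, and the blocked value is given where it changes a call. Symbols were matched to RefSeq (49 of 49) and GENCODE vM21. Named are the catalytic subunits and their counterparts, Psme1 to Psme3, called genes, the extremes of level and of change in +/+ per group, untested genes, and called genes of the pathway lists. The family and the lists were chosen with earlier results of these data known. The counts of the floxed gene itself and the values of some listed genes are not reported here.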

Additional observations from a re-analysis of the deposited data

How the results depend on the processing

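Of the 1 proteasome gene called in +/+ between states, 0 remained in the fit of the contrast's groups alone, 2 genes were called with the replicate block, and 0 to 1 without single libraries. In fl/+, against 2, limma called 4 under each of its 3 settings and fits without single libraries 0 to 3. Psma4, Psmb1 and Psma6 passed in all 3 limma fits and with library totals alone. Psma1 passed in the 2 limma fits with a filter. Psma8 passed in the limma fit without a filter (limma adjusted p = 0.0343), and the main test had left it out for low counts. In fl/fl, against 0, library totals alone gave 5, a filter of at least 10 CPM in 3 libraries 1, limma 7, 7 and 6, and fits without single libraries 0 to 1. For fl/+ against +/+ in resting cells, fits without single libraries gave 0 to 1. Fits in which the share of calls that were higher moved by over 10 points from 59.4% in +/+, 59.6% in fl/+ and 79.1% in fl/fl were library totals (73.6, 74.8 and 92.1%) and limma (72.9 to 77%, 75.6 to 77.1% and 91.5 to 93%). The fit with the replicate block, by batch number over all genotypes, changed the calls of Psmb10 in +/+ and Psmg4 in fl/+. It changed no other call of a proteasome gene. Without a filter the calls of Psma4 were lost in +/+ (adjusted p = 0.0976) and fl/+ (0.0515), while Psmb10 passed in +/+ (0.0445) and Psmg4 in fl/+ (0.0499). The cause of these changes was not tested. No called change of a named gene changed direction. Of 67 changes of named proteasome genes, 21 took both signs over the alternatives, none of them called in any fit, and the family median changed sign in +/+ (0.0626 with library totals, 0.0589 to 0.0653 with limma) and in fl/+ (-9.25e-05 without fl/+ effector 2).

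With CPM in place of FPKM, the Psmb8 share of its pair was 84.55 and 85.1% in +/+ resting and effector cells, 85.67 and 84.67% in fl/+ and 83.05 and 82.97% in fl/fl. The Psmb9 share was 49.86 and 49.8%, 47.66 and 48.48%, and 47.2 and 48.77%, and the Psmb10 share was 77.41 and 72.09%, 78.59 and 72.48%, and 74.92 and 70.8%, since CPM does not divide by length. Depth limits Psmb11, Psmc3ip and Psma8, whose intervals are wide or absent. The planned comparison of protein sequences was not run.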
